A study of Mus musculus with 2 samples.

Results

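Intronless protein-coding genes are genes whose annotated transcripts each consist of 1 exon, so that, as annotated, their messenger RNA has no intron to splice. Membership was read from the gene annotation: a gene on a nuclear chromosome had to be protein-coding and every annotated transcript of it had to have 1 exon. This gave 1318 of 21938 nuclear protein-coding genes, or 6.01%. Of these, 1264 had 1 annotated transcript and 54 had more, up to 3. The rule used no read count.

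The reads come from hippocampus, labelled as a layer of hippocampus, whose total RNA was sequenced as long reads. The mice were 14-day-old females of B6CASTF1/J, the first-generation offspring of C57BL/6J and CAST/EiJ mice. There was 1 group of 2 libraries and no other genotype, treatment or age. Each library pooled 3 animals, used 2 µg of RNA and contained ERCC and SIRV spike-in RNAs, so the spread between libraries is not one between single animals. The reads were assigned on mm10, the genome of C57BL/6J. Replicate 1 held 1168366 reads and replicate 2 held 888704. A description line gives both libraries the same animal numbers, whereas another label gives them different ones, so whether the pools held separate animals could not be settled, and every difference below is one between these libraries. The glutamatergic neuron gene Slc17a7 (1321 and 1202 reads) and the CA1 gene Wfs1 (126 and 141) were read in both libraries, while the dentate granule cell gene Prox1 had 8 and 34 reads and the choroid plexus gene Ttr 5325 and 5. The part of these last differences in the values below was not tested.

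Genes without introns arise in several ways. Some are old families that expanded by duplication of 1-exon genes, such as olfactory and other G protein-coupled receptors and the replication-dependent histones. Others are retrogenes, copies of a spliced messenger RNA written back into the genome, or genes derived from retroelements, and many immediate early genes and developmental transcription factors are short or lack introns. A replication-dependent histone messenger RNA ends in a conserved stem-loop in place of a poly(A) tail, and a method that primes on poly(A) reads it poorly.

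The sequences shown first are example windows before the annotated start of members that were read and of one that was not. These windows, called promoter windows here, are the 250 bases before the transcription start annotated in RefSeq on GRCm38.p6, with every CG pair in capitals. They belong to Cldn5, a tight junction protein of brain endothelial cells, to Tspyl1, a member of the nucleosome assembly protein family, and to the olfactory receptor gene Olfr1024. Cldn5 had 338 reads in replicate 1 and 269 in replicate 2, Tspyl1 had 202 and 208, and Olfr1024 had 0 in both.
Cldn5, chr16:18776597-18776846, plus strand: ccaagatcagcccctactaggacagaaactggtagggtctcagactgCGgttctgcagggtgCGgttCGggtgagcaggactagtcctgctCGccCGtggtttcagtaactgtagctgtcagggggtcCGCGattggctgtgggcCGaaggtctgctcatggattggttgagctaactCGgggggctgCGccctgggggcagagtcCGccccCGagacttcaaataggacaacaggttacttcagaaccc
Tspyl1, chr10:34281940-34282189, plus strand: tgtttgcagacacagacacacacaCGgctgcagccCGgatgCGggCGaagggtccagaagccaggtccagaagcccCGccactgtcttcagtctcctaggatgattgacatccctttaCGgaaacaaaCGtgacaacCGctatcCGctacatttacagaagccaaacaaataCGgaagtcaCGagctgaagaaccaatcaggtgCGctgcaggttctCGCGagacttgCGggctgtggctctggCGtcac
Olfr1024, chr2:85905053-85905302, minus strand: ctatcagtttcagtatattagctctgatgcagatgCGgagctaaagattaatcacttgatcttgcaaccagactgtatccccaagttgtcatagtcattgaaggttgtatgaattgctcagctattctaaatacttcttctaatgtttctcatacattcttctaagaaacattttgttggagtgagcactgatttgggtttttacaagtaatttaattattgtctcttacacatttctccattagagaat

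The windows of Cldn5 and Tspyl1 hold 12 and 16 CG pairs and that of Olfr1024 holds 1. Over all members with a RefSeq entry, the median number of CG pairs in this window was 16 for the 110 matched members with at least 10 reads in each library, 12 for the 105 matched members with fewer reads and 1 for the 545 matched members with 0 reads. Leaving out the chemosensory receptor, keratin and unnamed families, the median was 2 for the 203 matched members with 0 reads. The groups overlapped: at most 3 CG pairs were found for 5 of the 110 (4.55%) and for 420 of the 545 (77.1%). Among the 11 matched members of the 15 with the highest CPM the number ran from 3 in Jund to 29 in Purb, with 5 in Ndn and Rtl8a and 6 in Rtl8b. The RefSeq start lies 1210 nt from the annotated start in Jund and 1708 nt in Ndn, and 81 and 29 nt from it in Rtl8a and Rtl8b. Other protein-coding genes had medians of 17 for 6764 genes with 10 or more reads per library and 2 for 4302 genes with 0 reads. The annotated 5′ untranslated region had a median of 20 nt in members with 0 reads, against 178 nt in those with at least 10 reads in each library. An annotated start can thus lie close to the coding sequence, above all in members with 0 reads. Whether each window is the promoter in use was not tested. These are descriptions over genes, and the CG pair reads the same on both strands.

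Most intronless genes were silent in these libraries. At least 1 read was found for 382 members (29.0%), and 936 (71.0%) had 0 reads in both libraries. A count of 0 allows a level of up to 2.57 reads per 1000000 reads (CPM) in replicate 1 and 3.38 CPM in replicate 2, since 1 read is 0.856 and 1.13 CPM, and these limits cover counting error only. At least 10 reads in each library were found for 153 members (11.6%), against 8498 of 20620 other protein-coding genes (41.2%). Past this minimum, which cuts both groups at the same count, the median was 40.4 CPM for the 153 members and 43.9 CPM for the 8498 other genes. The 75th percentile was 79.5 CPM for the members and 91.7 CPM for the other genes, and the highest levels were 571 and 7497 CPM. Together the members held 12395 reads in replicate 1 and 10089 in replicate 2, a share of 1.10% ± 0.0526 of a library (SD, n = 2).

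The 153 members differed from the silent ones in their annotated transcripts. Their median transcript length was 2388 nt, against 954 nt for members with 0 reads, while the coding parts were of like length, with medians of 1005 and 888 nt. The 3′ untranslated region had a median of 900 nt in the read members and 39 nt in those with 0 reads. No 3′ untranslated region is annotated for 1.31% of the read members, against 44.5% of the members with 0 reads. The letters AATAAA, the canonical poly(A) signal, searched on the transcript strand in the last 50 bases, occurred in 58.8% of the read members and 26.5% of those with 0 reads. Without the chemosensory receptor, keratin and unnamed families the members with 0 reads had a median 3′ untranslated region of 165 nt, none annotated in 21.6%, and AATAAA in 36.3%. The letters occurred in 59.8% of other protein-coding genes past that minimum. An annotated 3′ end can itself have been drawn from RNA seen in earlier work, so the annotation is not independent of expression.

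Members just inside and just outside the read minimum had similar counts by construction. The lower of the 2 library counts was exactly 10 for 4 members, among them Tspyl5 (18 and 10 reads), the deubiquitinase gene Otud1 (17 and 10) and Hmga1b (15 and 10). It was exactly 9 for 9 members, among them the muscarinic receptor gene Chrm4 (9 and 14), Gm11808 (16 and 9) and the somatostatin receptor gene Sstr4 (14 and 9). A further 98 members had reads in 1 library only, with at most 4 reads: C730034F03Rik and Gm9747 had 4 in replicate 1, B430305J03Rik had 3 in replicate 1, and Gpr25 and Ube2d2b had 4 in replicate 2.

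**Figure D1:**
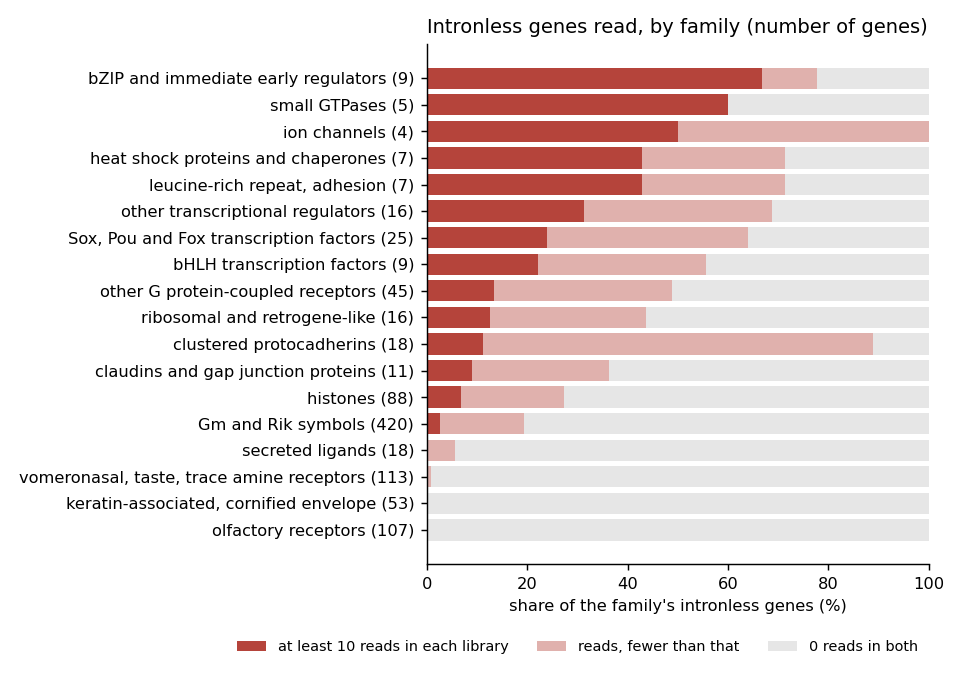
Share of each family's intronless genes (percent, horizontal axis) past the minimum of 10 reads in each library, with fewer reads and with 0 reads; the number of genes stands after each name. Among the families assigned by symbol pattern, the bZIP and immediate early genes had the highest share past the minimum, at 6 of 9, while the 107 olfactory receptors and the 53 keratin-associated and cornified envelope genes had no read.

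The chemosensory receptors were the largest named families and were not read. All 107 olfactory receptor members had 0 reads, and of 113 vomeronasal, taste and trace amine receptors 1 had a read, the trace amine receptor gene Taar1 with 0 reads in replicate 1 and 1 in replicate 2. Of the 88 olfactory receptors with a RefSeq promoter entry the median window held 1 CG pair. The 53 keratin-associated and cornified envelope genes, which belong to hair and skin, had 0 reads, and of 61 testis and germline genes, a list drawn up after the values were seen, 2 had reads, Actl10 (0 and 2) and Tssk6 (1 and 0). Secreted ligands were represented by 1 of 18 genes, the BMP antagonist Nog, with 8 and 4 reads.

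Receptors for transmitters, peptides and Wnt ligands were read more often than the chemosensory receptors. Of 45 members in this family 22 had reads, against 382 of all 1318 members (29.0%). At least 10 reads in both libraries were found for 6 (13.3%), near the 11.6% of all members. The family summed to 393 ± 44.0 CPM (SD, n = 2). The orphan receptor gene Gpr27 had 144 reads in replicate 1 and 151 in replicate 2, a level of 147 ± 33.0 CPM. The alpha-2C adrenergic receptor gene Adra2c, which encodes a presynaptic autoreceptor for noradrenaline, had 84 and 63 reads, 71.4 ± 0.711 CPM, so its 2 levels all but coincided. The Frizzled receptors for Wnt ligands followed with Fzd9 at 29 and 28 reads and Fzd1 at 25 and 22. Gpr135 had 16 and 20 reads and the serotonin receptor gene Htr1a 23 and 12. The dopamine receptor gene Drd5 had 1 read in replicate 1 and 0 in replicate 2.

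**Figure D2:**
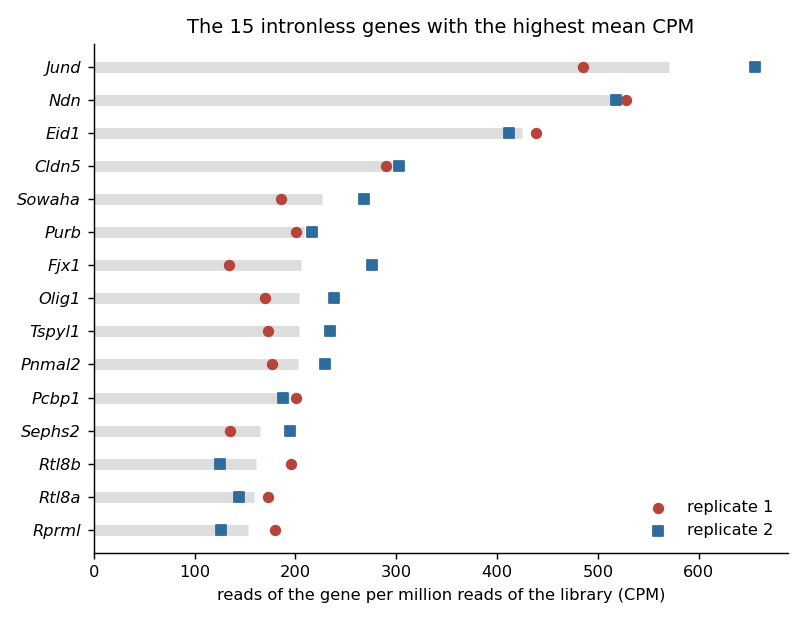
CPM in replicate 1 (circles) and replicate 2 (squares) of the 15 intronless genes with the highest mean CPM; the grey bar ends at the mean. Jund and Ndn stand highest, Ndn with near-equal libraries, and the libraries of Fjx1 lie furthest apart in proportion.

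The members with the highest CPM have different known roles. Jund, an AP-1 transcription factor on chromosome 8 (70698949 to 70700616, mm10), had 567 and 583 reads, 571 ± 121 CPM. Necdin, Ndn (chromosome 7, 62346569 to 62350262), a paternally expressed growth suppressor of postmitotic neurons, had 617 and 460 reads, 523 ± 7.41 CPM. Eid1, an inhibitor of differentiation that binds the retinoblastoma protein and p300, had 512 and 366 reads, 425 ± 18.7 CPM. The spread of Jund between the libraries was thus many times that of Ndn, although both were read more than 400 times in each. Cldn5 came next at 296 ± 9.47 CPM, then the ankyrin repeat gene Sowaha (217 and 238 reads), the single-stranded nucleic acid binding protein gene Purb (234 and 192) and Fjx1, the four-jointed homologue (157 and 245).

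The same ranking went on with genes of oligodendrocytes, chromatin and RNA. Olig1, a bHLH factor of the oligodendrocyte lineage, had 198 and 212 reads, or 204 ± 48.8 CPM. In tissue RNA, fewer cells of a type and less RNA per cell cannot be told apart, which holds for Olig1 and for Cldn5. Tspyl1 stood at 203 ± 43.2 CPM, Pnmal2, of the paraneoplastic antigen family, at 203 ± 37.6 CPM and Pcbp1, a poly(rC)-binding protein, at 194 ± 8.74 CPM. Sephs2 (158 and 173 reads) makes selenophosphate for selenoproteins. Rtl8b (229 and 111), Rtl8a (202 and 128) and the reprimo-like gene Rprml (210 and 112) completed the 15 highest. The steps from Ndn to Eid1, from Eid1 to Cldn5 and from Cldn5 to Sowaha were larger than the SDs of the genes on either side, whereas Jund and Ndn, and all neighbours after Sowaha, lay within their spread. On CPM per kb of annotated transcript, a scale that takes length into account but raises short genes where 1 long read stands for 1 molecule, 9 of these 15 were among the 15 highest, led by Jund at 342 CPM per kb, Gm11273 at 263, Eid1 at 251 and Cldn5 at 209. The 10 highest members by CPM held 27.7% of all member reads, and 22 members had at least 100 reads in each library.

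Transcription factors and other regulators made up 4 families, of which the bZIP and immediate early genes had the largest share past the minimum. Of 9 bZIP and immediate early genes 7 had reads and 6 passed the minimum, summing to 775 ± 144 CPM, most of it from Jund. The C/EBP factor Cebpb had 96 and 60 reads, Jun, the partner of Fos, 36 and 26, Ier2 34 and 38, and Ier5 30 and 53. Of 25 Sox, Pou and Fox factors 16 had reads and 6 passed, at 363 ± 99.95 CPM in sum. Pou3f1, a POU factor of neurons and Schwann cells, had 138 and 101 reads (116 ± 3.16 CPM). Sox4, of immature neurons, had 94 and 127 (112 ± 44.2 CPM), and Sox2, of neural stem cells and glia, had 47 and 57. Pou3f3 (14 and 17), Sox11 (12 and 18) and Foxc1 (14 and 14) stood just above the minimum, and Sox21 (7 and 19) below it. Among 9 bHLH factors Olig1 and the neuronal repressor Bhlhe22 (24 and 17 reads) passed, while Bhlha9 (9 and 2) and Bhlhe23 (0 and 1) did not. Other regulators included Irf2bp1 (116 and 99), Fem1a (53 and 36), Irf2bpl (45 and 37) and Nanos1 (24 and 19).

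Several groups of related genes had reads on most of their members, in lists drawn up after the values were seen, so their counts are descriptions. Of 13 genes of the necdin and MAGE family and their imprinted neighbours 9 had reads and 5 passed, at 776 ± 7.53 CPM in sum. Beside Ndn these were Magee1 (113 and 112 reads), Nsmce3 (91 and 55), Mkrn3 (32 and 29) and Mageh1 (43 and 19). Magel2 and Peg12, which lie in the same imprinted region of chromosome 7 as Ndn and Mkrn3, had 1 and 1 and 1 and 0 reads. All 8 genes of the retroelement-derived Rtl, Pnma and Ldoc1 group had reads and 5 passed, at 684 ± 14.2 CPM, among them Rtl6 (89 and 100). All 5 nucleosome assembly and Tspyl genes passed, at 366 ± 44.8 CPM, with the brain gene Nap1l2 at 70 and 76 reads. Of 4 EID genes 3 had reads and passed, at 552 ± 21.7 CPM: Eid1, Eid2 (116 and 86) and Eid2b (35 and 25). Of 19 genes of RNA processing and ribosome biogenesis 17 had reads and 13 passed, at 792 ± 5.88 CPM: beside Pcbp1 they included the polyadenylation factor Cstf2t (110 and 118), the SF3B subunit Sf3b5 (125 and 53), the fibrillarin-like gene Fbll1 (106 and 61) and Imp3 of the U3 snoRNP (69 and 44).

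Cell-surface, signalling and chaperone families each had 1 to 3 members past the minimum. Of 18 clustered protocadherins, which give neurons their adhesive identity, 16 had reads but only Pcdhb9 (16 and 19) and Pcdhb7 (17 and 17) passed, followed by Pcdhb12 (9 and 8) and Pcdhb20 (12 and 4). Leucine-rich repeat genes that passed were Lrrc10b (106 and 111), Tril, an interactor of Toll-like receptors (82 and 76), and the synapse-organising gene Slitrk1 (23 and 22), while Tpbgl had 17 and 5. Among claudins and gap junction genes Cldn5 passed, and Cldn3 (7 and 2), Gjd3 (2 and 3) and Cldn22 (0 and 1) did not. The potassium channel subunit genes Kcnf1 (21 and 21) and Kcne1l (22 and 18) passed, whereas Kcna3 and Kcna5 each had 1 and 4 reads. The small GTPase genes Rhob (83 and 49) and Rap2b (45 and 45) and the Ras-association gene Rassf10 (11 and 16) passed. The inducible Hsp70 genes Hspa1b (15 and 18) and Hspa1a (13 and 13) and the mitochondrial co-chaperone gene Dnajc30 (62 and 42) passed, and Dnajb3 (4 and 2) did not.

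Of 88 histone members 24 had reads, near the share over all members, where 382 of 1318 (29.0%) had reads. The minimum was passed by 6 histone members (6.82%), against 11.6% of all members, and the family summed to 335 ± 42.2 CPM. The highest were Hist3h2a (151 and 86 reads, 113 ± 23.0 CPM), the variant H2afx of the DNA damage response (93 and 62), the linker histone gene H1f0 (53 and 50), which is made outside S phase, and Hist2h2aa2 (39 and 16). The letters of the histone stem-loop, searched on the transcript strand as the capitals shown in the sequences that follow with any base at the lower-case positions, occurred in 44 of the 88 histone members. They occurred in 0 of the 1230 other members and in 27 of 20620 other protein-coding genes. The 16 letters are given here for the highest histone members that hold them.
Hist3h2a, chromosome 11: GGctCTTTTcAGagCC
H2afx, chromosome 9: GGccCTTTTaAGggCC
Hist2h2aa2, chromosome 3: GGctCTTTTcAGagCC

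Of the 6 histone members that passed, 4 held the stem-loop letters, and H1f0 and H1fx (26 and 15 reads) did not. In Hist3h2a the annotated transcript goes on for 1643 nt after the stem-loop and in H2afx for 822 nt, so these annotations extend well beyond the site where a replication-dependent histone messenger RNA ends. In Hist3h2ba (16 and 17 reads) it goes on for 169 nt, and in Hist2h2aa2 for 35 nt. The median was 495.5 nt over those 4, 155 nt over 13 histone members with fewer reads and 74 nt over 27 with 0 reads. The deposited counts do not give where reads ended, so whether reads passed the stem-loop was not measured. Hist2h2aa2 is identical over its whole length of 528 nt to Hist2h2aa1 (20 and 8 reads) and to Gm20634 (9 and 5 reads), which overlaps Hist2h2aa1. Reads of the 3 genes that stay within that stretch cannot be told apart by sequence.

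Reads on members were almost all placed on the annotated transcript. The deposited classes are annotated transcripts, incomplete splice matches, which lack exons of an annotated transcript, new combinations of annotated splice sites, models with an unannotated site, and genomic models. Of member reads 98.8% ± 0.0274 were on annotated transcripts, 1.04% ± 0.113 on genomic models and 0.0874% ± 0.101 on incomplete splice matches (SD, n = 2). Of reads on other protein-coding genes 71.6% ± 0.232 were on annotated transcripts, 7.13% ± 0.835 on genomic models and 10.9% ± 0.155 on incomplete splice matches. The contrast follows in part from the definition, since a gene with 1 exon has no annotated junction to lose or to recombine. The genomic reads of members, 139 and 97, were all on spliced models, with 0 on 1-exon models in either library. On other protein-coding genes 75368 of 75761 and 50492 of 50794 genomic reads were on 1-exon models. The genomic shares of 1.04% and 7.13% therefore cover different kinds of model.

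**Figure D3:**
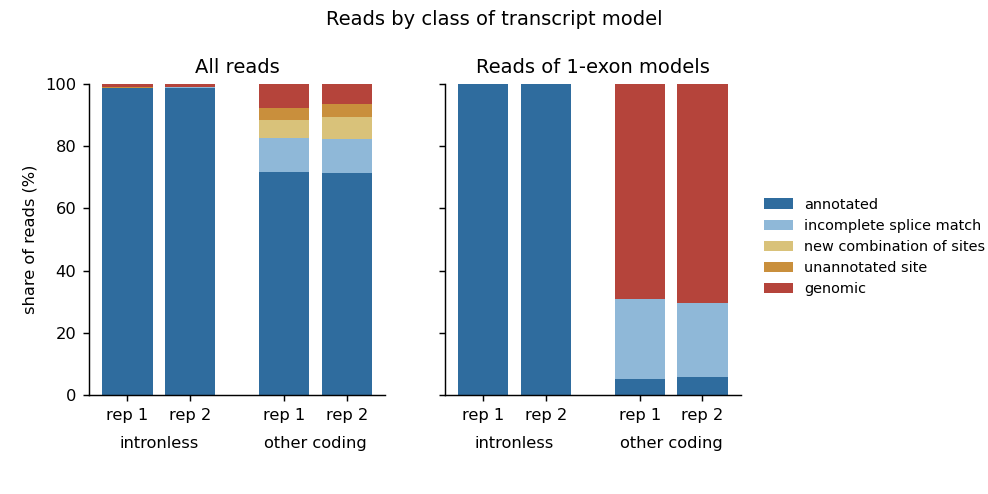
Share of reads (percent) by class of transcript model in each library, for intronless genes and other protein-coding genes, over all reads (left) and over reads of 1-exon models (right). On intronless genes both bars are filled by annotated transcripts, while 1-exon models on other genes are mostly genomic, at 69.7%.

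The same 1-exon form of a read was thus named differently by gene. On members, 12244 of 12244 reads of 1-exon models in replicate 1 and 9970 of 9986 in replicate 2 were on annotated transcripts. On other protein-coding genes 5.48% ± 0.575 of such reads were on annotated transcripts, 24.8% ± 1.49 on incomplete splice matches and 69.7% ± 0.916 on genomic models. An unspliced or internally primed read on an intronless gene therefore carries no separate class, and the annotated share of a member does not show that its reads spanned the transcript. Per gene, 116 of the 153 members with at least 10 reads in each library had all reads on annotated transcripts, against 47 of 8498 other genes (0.553%). Jund, Purb, Fjx1, Olig1 and Rtl8b were at 100% in both libraries.

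Spliced reads were rare and concentrated in a few members. The added models of members held 83 different intron chains on 61 members, with 254 reads over both libraries; 63 of the chains had a single read, and 17 chains occurred in both libraries and held 185 of the 254 reads. Rtl8c, a retroelement-derived gene on the X chromosome, stood apart: 67 reads in replicate 1 and 30 in replicate 2 came from a model with an intron of 261 nt (53608425 to 53608685) that starts 8 nt before the annotated end of the gene and joins a downstream exon. Only 6 and 3 of its 73 and 50 reads were on the annotated transcript, and 16 replicate 2 reads lay on a 1-exon model of that downstream exon, whose 20 reads in replicate 1 were filed under a separate added locus. Without Rtl8c the annotated share of member reads was 99.3% and the genomic share 0.626%. Fndc10 had 12 and 12 of its 22 and 15 reads on a model with a 450-nt intron after the coding sequence. Chrm4 had 7 and 10 of its 9 and 14 reads on a model with a 4873-nt intron that leads to an exon upstream of the annotated gene, Tmem200b had 3 and 4 spliced reads, and AW011738 had 3 and 3.

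The bases at the ends of introns inside annotated exons are given here for Fndc10 and Gas1, whose end bases differ. In each line the outer 2 bases of the intron are in capitals, with exon bases before a donor and after an acceptor.
Fndc10 donor, chromosome 4: gcacccagggGTgagtgtcc
Fndc10 acceptor, chromosome 4: ctcaccccAGcgaccgtgat
Gas1 donor, chromosome 13: gaacacccgcCTttaccagc
Gas1 acceptor, chromosome 13: gcggccccGCggccgccacc

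The Fndc10 intron begins with GT and ends with AG, bases that the spliceosome uses. The 92-nt gap in Gas1, a membrane protein of Hedgehog signalling with 1 and 3 such reads, begins with CT and ends with GC and is flanked by a repeat of 5 bases. Among 36 chains with 1 intron inside an annotated exon, on 32 members, 29 were GT-AG, 4 were GC-AG and 3 were CT-GC, and the GT-AG chains held 56 of 66 reads. The CT-GC pair is GC-AG when read on the other strand, and no other pair occurred. End bases alone therefore do not tell splicing from other origins of these gaps, and their origin was not tested. A repeat of at least 4 bases at the ends was found for 7 of the 36. After Rtl8c, the lowest annotated shares among members with at least 20 reads in each library were 93.4% in Gas1, 95.6% in Imp3, 96.3% in the progestin and adipoQ receptor gene Paqr9 and 96.7% in the spliceosome-related gene Zrsr1. Of the 110 members with at least 20 reads in each library 79 had all reads on annotated transcripts, so that no difference in share could be found in them. In the other 31 the share could vary between the libraries, as in Sox4 (94.7% and 99.2%). Of the 110, 0 passed the test of that share, 0 had an unadjusted p under 0.05 and the lowest adjusted p was 0.773, against 0.696% of 6607 genes called (two-sided Fisher's exact test, Benjamini-Hochberg adjustment). A p that misses the threshold does not show that the shares were equal.

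Read numbers of 17 members differed between the libraries. Of 208 members with at least 10 reads over both libraries, 17 (8.17%) passed an exact binomial test (two-sided, of a gene's reads in replicate 1 against that library's part of all reads) at an adjusted p of at most 0.05, against 10.8% of all 11681 genes tested, so the members' share was no higher than the background. Higher in replicate 1 were 7 members (3.37%, background 5.03%) and higher in replicate 2 were 10 (4.81%, background 5.81%). The test has reads as its unit and compares these libraries. The median log2 ratio of replicate 1 over replicate 2, on CPM plus 1, was -0.05 over the 208 members and -0.11 over all genes tested.

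Members higher in replicate 1 had mostly short transcripts. Rps27rt had 51 and 17 reads (log2 ratio 1.15, adjusted p = 0.0306), Rpl10-ps3 93 and 36 (0.96, adjusted p = 0.00761), Sf3b5 125 and 53 (0.83, adjusted p = 0.00530), Gm11273 149 and 69 (0.71, adjusted p = 0.00932) and Rtl8b 229 and 111 (0.65, adjusted p = 0.00184), all by the exact binomial test. Their number also held Rprml and Bmyc, a relative of Myc (150 and 74 reads). The 7 had annotated lengths of 374 to 3841 nt with a median of 983 nt, and 4 of them have a near-identical annotated copy. Members higher in replicate 2 were longer, with 1668 to 4886 nt and a median of 3205 nt, and none of the 10 has such a copy. They were Sox21 with 7 and 19 reads (-1.68, adjusted p = 0.0392), Ier5 with 30 and 53 (-1.18, adjusted p = 0.00424), Fjx1 with 157 and 245 (-1.03, adjusted p = 1.76e-10), Sox4 with 94 and 127 (-0.82, adjusted p = 7.11e-04), the centromere protein gene Cenpb with 130 and 151 (-0.61, adjusted p = 0.00771), and Sowaha, Sephs2, Olig1, Tspyl1 and Jund, all by the exact binomial test.

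**Figure D4:**
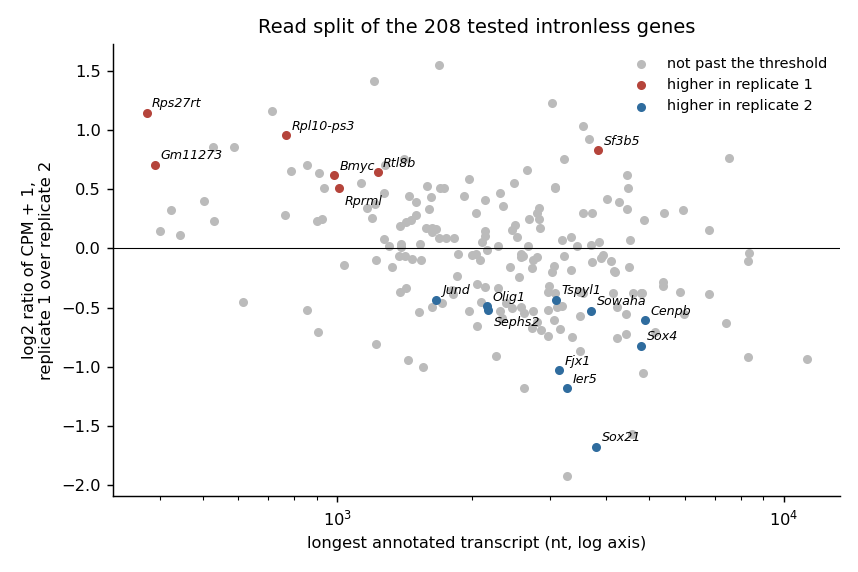
Log2 ratio of CPM plus 1, replicate 1 over replicate 2, against the length of the longest annotated transcript (nt, log axis) for the 208 tested intronless genes; coloured points passed the exact binomial test. Points of short transcripts lie mostly above 0 and those of long transcripts mostly below it, with medians of 0.46 up to 1000 nt and -0.34 above 4000 nt.

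The read split moved with transcript length over the members as a whole. The median log2 ratio of replicate 1 over replicate 2 was 0.46 for 22 members of up to 1000 nt, 0.09 for 57 of 1000 to 2000 nt, -0.11 for 91 of 2000 to 4000 nt and -0.34 for 38 above 4000 nt. When the expected split was taken from all genes of like length, 2 members were higher in replicate 1 and 3 in replicate 2, and 4 of the 17 called members kept their call, namely Jund, Fjx1, Sox4 and Sf3b5. The log2 ratio of Sf3b5 went from 0.83 to 1.09 in that fit. Its annotated length of 3841 nt includes a 5′ untranslated region of 3280 nt, so its kept call depends on that annotation. Some lost calls kept much of their log2 ratio in that fit, with -0.94 in Ier5, -1.42 in Sox21, -0.44 in Sephs2 and -0.41 in Olig1, while those of Gm11273 and Rprml came to 0.03 and 0.01. With TMM-scaled totals, which shift all log2 ratios by 0.13, 8 members were higher in replicate 1 and 5 in replicate 2. Rtl8b, for example, had a log2 ratio of 0.65 against library totals and 0.15 against genes of its length.

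Near-identical copies limit what can be said of 14 of the 153 read members. These match another annotated gene with at least 95% identity over at least 80% of their transcript, so the reads given to them and to the other gene may have been split by a few bases. For 13 the other gene lies elsewhere, and Exosc6 matches Aars, which shares its stretch and strand. Gm11273 (149 and 69 reads) is 99.2% identical to the spliced transcript of the cytochrome oxidase gene Cox5b (598 and 275). Rpl10-ps3 (93 and 36) is identical over 96.4% of its length to the ribosomal protein gene Rpl10, which itself had 9 and 6 reads, so the intronless copy held most reads of the pair. Rps27rt (51 and 17) is identical to Rps27 (150 and 94) over 91.2% of its length, AK157302 (72 and 40) is 99.0% identical to Isca1 (347 and 268), and Amd2 (32 and 14) is 99.6% identical to Amd1 (23 and 26). Rtl8a and Rtl8b are 99.6% identical to each other. Rpl9-ps6 (22 and 7) and Hnrnpa0 (12 and 9), which the symbol patterns filed with the retrogene-like members, stood below the minimum, and of the unnamed models 0610012G03Rik was highest, with 179 and 100 reads.

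Models of another gene's name that overlap a member's exon by at least 1 base on the same strand held 561 reads in replicate 1 and 484 in replicate 2. Exosc6, a subunit of the RNA exosome with 34 and 29 reads of its own, lies whole inside a transcript model of the alanyl-tRNA synthetase gene Aars that had 65 and 68 reads. The 171-nt member named Arhgef4 had 0 reads and overlapped the spliced gene of the same name with 150 and 126 reads. H1fx (26 and 15 reads) overlapped models of Gm47286, which had 27 and 28 reads, by at most 24 bases. AL731706.2 (0 reads) overlapped 63 and 33 reads of other names. Gm42517 (69 and 62 reads) touched an added intergenic locus of 69 and 49 reads by 1 base.

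Antisense reads mostly belonged to annotated neighbours. Models on the opposite strand that overlap a member's exon by at least 1 base held 5437 reads in replicate 1 and 4468 in replicate 2. Where at least 50% of the model had to lie over the member they held 1240 and 789. Any antisense read was found for 221 members (16.8%), against 46.0% of other protein-coding genes, and at least 10 in each library for 63 members (4.78%), against 9.08%. The largest numbers lay opposite members with few or no reads of their own: Gm26602 (0 reads) is covered on the other strand by exons of R3hdm4 with 517 and 470 reads, 4930535I16Rik (0 reads) opposite Rragc with 210 and 209, Gm10401 (0 reads) opposite Sppl3 with 185 and 185, and Gpr62 (6 and 7 reads) opposite Pcbp4 and added loci with 190 and 190. Of the reads opposite Gpr62, 173 and 181 were on models of Pcbp4, which overlap the 1977-nt Gpr62 by at most 51 bases. Gm9945 (23 and 12 reads) is itself antisense to Sowaha, another intronless gene, whose overlapping models had 215 and 238 reads. Klhl9 and Gm26566, and Rap2b and B430305J03Rik, are further pairs of members on opposite strands. Among the 153 read members 18 (11.8%) had at least 10 antisense reads in each library, against 14.9% of the 8498 other read genes.

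Added antisense loci, which are models on no annotated gene of that strand, gave a different picture. They held 953 and 746 reads opposite members. Rap2b, a Ras-family GTPase on chromosome 3, had 224 and 94 such reads against 45 and 45 of its own. Sox11, a factor of immature neurons on chromosome 12, had 126 and 141 against 12 and 18, Klhl9 had 97 and 41 against 61 and 53, and Frat1, which binds GSK3 in Wnt signalling, had 65 and 54 against 4 and 8. Purb had 72 and 82 against 234 and 192, and Bhlhe22 29 and 29 against 24 and 17. Any read of these loci was found for 93 members (7.06%), against 34.9% of other protein-coding genes. At least 10 in each library were found for 13 members (0.986%), against 2.59%. Among the 153 read members 10 (6.54%) had at least 10 in each library, against 4.86% of the 8498 other read genes. At 6 of the 153 (3.92%) these loci exceeded the gene's own reads in both libraries, against 0.930% of the 8498. These shares are descriptions over genes of the same libraries.

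**Figure D5:**
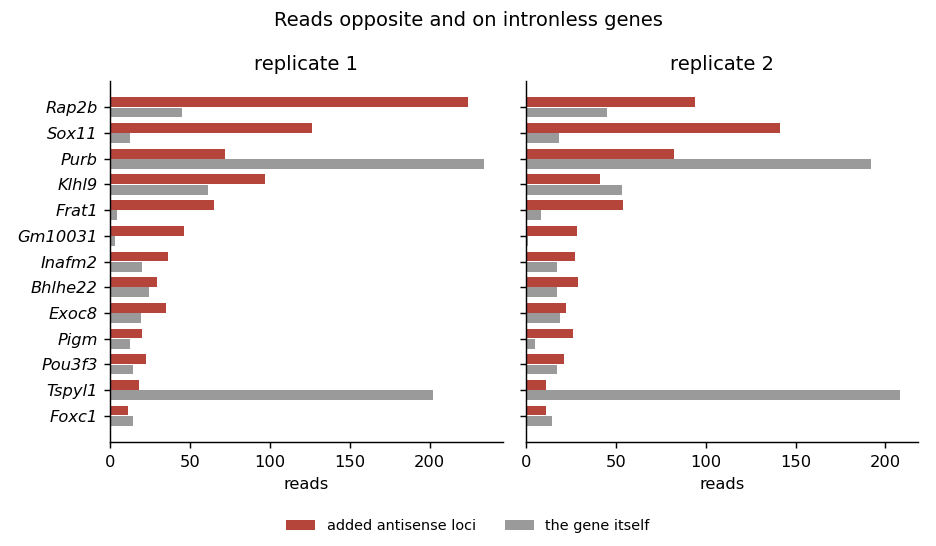
Reads of added antisense loci (upper bar) and of the intronless gene itself (lower bar) for the 13 members with at least 10 antisense-locus reads in each library, in replicate 1 (left) and replicate 2 (right). Rap2b, Sox11, Frat1 and Gm10031 had at least 2 times as many reads opposite the gene as on it in both libraries.

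The bases just beyond the 3′ end of these antisense models were read from the members' own annotated transcripts, turned to the strand of the model, because a run of A inside an RNA is a place where an oligo(dT) primer can start away from a tail. Each line gives the 20 bases after the model's 3′ end in replicate 1, with every A in capitals.
Rap2b, chr3:61366498-61366517, minus strand: AAAAAAAAAAAAAAAAAAAA
Sox11, chr12:27338513-27338532, plus strand: AAAAAAAAAAAAAAAAAAAA
Klhl9, chr4:88719106-88719125, plus strand: AAAAAAAAAAAAAAAAAgAA
Purb, chr11:6472278-6472297, plus strand: ctttctAttcAgctAAttAt

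The windows of Rap2b and Sox11 are 100% A, that of Klhl9 is 95% A and that of Purb is 25% A. The same window could be read for 78 antisense models of 1 exon, 40 in replicate 1 and 38 in replicate 2, with 1442 reads together. At least 50% A was found beyond 56 of the 78 models and beyond 24 of the 30 with at least 10 reads, whose median was 95% A. Those 30 models lie on 14 members, and windows such as that of Frat1 recur in both libraries. The counts of models are therefore not counts of separate places. Of all windows of 20 bases on that strand of the members with reads, 5.77% reach 50% A and the median is 25%. By reads, 88.7% in replicate 1 and 82.0% in replicate 2 lay on models whose 3′ end was followed by at least 50% A. Frat1, Inafm2, Pigm, Pou3f3 and Gm10031 were among the genes with such ends in both libraries, while Purb was not. Its models of 60 and 61 reads had the same end coordinate in both libraries. That coordinate belongs to the model, and where the single reads ended is not given. The part of priming at these bases in the antisense counts was not tested.

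The names of such loci did not always carry over between libraries. Opposite Ado, a thiol dioxygenase gene with 60 and 36 reads, 42 reads in replicate 1 were filed under the neighbouring gene Egr2 and 42 reads in replicate 2 under an added antisense locus, and both models end within 1 base of each other (67547498 and 67547497 on chromosome 10). The bile acid receptor gene Gpbar1 had 0 reads of its own and 197 opposite reads in replicate 1, from 1 genomic model of Aamp that spans it. In replicate 2 the corresponding Aamp model, with 91 reads, was written with a length of 7 nt and did not reach Gpbar1, where the antisense count was 0.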

How the data were processed

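Each library has a deposited table of unscaled read counts, with 1 row per transcript model, per the file headers; the authors' annotation names TALON as the source of added models beside GENCODE M21 on mm10. The aligner, its version and any filter of reads were not given in the sources used here. Reads of all models that carry a gene's identifier were summed, and CPM is over all reads of a library. Members were taken from the deposited annotation; 13 further 1-exon genes on scaffolds, 0 of them with at least 10 reads in each library, were left out. Families were assigned by symbol pattern. The members, families, tests and the rule for named genes were chosen with earlier results of these data known, and 6 lists (noted in the text) after the values were seen. Named were the 15 highest members, the 4 highest of each family, and up to 5 at the extremes of each comparison; others, including Drd5, Rtl6, Magel2 and the antisense examples, were chosen after their values were seen.

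The read split was tested by an exact binomial test (two-sided, doubled tail) where a gene had 10 or more reads in total, with Benjamini-Hochberg adjustment over all genes tested and a threshold of 0.05. Fisher's exact test compared the annotated share where both libraries had 20 or more reads. Overlaps used annotated exons and deposited model coordinates. Copies were sought with blastn 2.17.0 among GENCODE M21 transcripts. Promoter windows come from RefSeq (GRCm38.p6) and other sequences from the GENCODE M21 transcripts. The planned share of A beyond the ends of all models was not run, because no genome sequence was used here; it was computed where an annotated transcript held the bases. edgeR 4.0.16 and DESeq2 1.42.0 gave alternative scalings. The other software was scipy 1.17.1, pandas 2.3.3, numpy 2.4.6, matplotlib 3.10.9, Python 3.11.15 and R 4.3.3.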

Additional observations from a re-analysis of the deposited data

How the results depend on the processing

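A wider definition, at least 1 protein-coding transcript with 1 exon, gave 2725 genes in place of 1318. With a minimum of 1 read in each library 284 members passed in place of 153, and with either library alone 161 to 179. The members higher in replicate 2 fell to 5 with TMM-scaled totals, 5 with DESeq2 size factors and 3 with the expected split by length, and those higher in replicate 1 to 2 with the last. By gene, 12 of the 17 calls were kept with either scaling, and the calls of Olig1, Tspyl1, Sephs2, Cenpb and Sox21 were lost with TMM-scaled totals, with log2 ratios of -0.36, -0.31, -0.40, -0.48 and -1.58 there. The annotated share of member reads was 98.8% in each library alone, 100% as the median over members, 98.6% without the 5 highest members, 98.7% with protein-coding transcripts only and 99.3% without Rtl8c. The genomic share was 0.961% to 1.12% by library, 0% as the median, 1.25% without the 5 highest and 0.626% without Rtl8c, and the incomplete splice match share 0.0161% to 0.159%. Antisense reads were 4468 to 5437 by library, and averaged 1014.5 where at least 50% of the antisense model had to lie over the member and 849.5 for added antisense loci alone. Leaving out Rtl8c, the other exact rule, the genes on scaffolds, members with a near-identical copy and the bases beyond antisense ends were added after the data were seen. No paired analysis was possible because there was 1 group of libraries. Depth limits every statement on members with 0 reads.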
